A study of Mus musculus with 8 samples.

Results

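The comparison asked how close mice labelled Ccl3-/- lay to wild type once they had been given CCL3, the chemokine that the deleted gene encodes. It used 4 of the 8 single-colour expression arrays of the series, chosen by their group labels and not by any measured value. All arrays were made from total RNA of olfactory mucosa, the nasal tissue that carries the olfactory sensory neurons. In every group, controls included, both olfactory bulbs had been removed, so no array shows the intact state. The groups compared were CCL3-injected mice labelled Ccl3-/- (2 arrays, called knockout-plus-CCL3 below) and carrier-injected C57BL/6 mice (2 arrays, called carrier wild type). The other 4 arrays, carrier-injected mice labelled Ccl3-/- (2 arrays, knockout-plus-carrier) and CCL3-injected C57BL/6 mice (2 arrays, wild-type-plus-CCL3), served for orientation. The labels give no ages, doses, times after surgery or extent of the deletion. The contrast changes genotype label and injection at once, so the share of each in a difference cannot be told apart within these 4 arrays. The labels do not say whether replicates came from separate mice, so a p-value here covers only the scatter from array to array, part of which may be technical.

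CCL3, also called MIP-1 alpha, is a CC chemokine that attracts monocytes, macrophages and other leukocytes, and CCR1 is a receptor for it. Removing the olfactory bulb takes away the synaptic target of the olfactory neurons, which then die while macrophages enter the epithelium and clear the debris. Basal cells afterwards divide and replace the lost neurons, and sustentacular cells, rich in detoxifying enzymes, support the epithelium throughout.

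One of the 2 carrier wild-type arrays stood apart before any gene was tested. Carrier wild type replicate 1 had a Gapdh 3' to 5' signal ratio of 2.59, against 0.755 to 1.31 on the other 7 arrays, and its 5' Gapdh signal was 9448 against 26787 to 64904. This ratio is a measure of RNA integrity and labelling length, since degraded RNA loses 5' signal first. The Actb ratio of the same array was 1.58, the lowest of all, against 1.61 to 2.17. Median intensities ranged from 581.4 to 660.3 over all arrays. Replicate 1 also lacked the signal of a few nasal gland genes, though not of all. Lcn3, an odorant-binding lipocalin of the nasal glands, was at 92.4 on it and at 36365 on carrier wild type replicate 2, and between 11526 and 41632 on the other 6 arrays. Values without this array are therefore given beside differences that it moved by over 1.5 times, and the plot of gene lists shows every list without it. The part of RNA quality or of tissue sampling in these results was not tested.

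No probe set passed the adjusted threshold between knockout-plus-CCL3 and carrier wild type, which does not show that none differed. limma called 0 of 8150 probe sets (0%) at an adjusted p under 0.05, and the lowest adjusted p was 0.284, for Alas2. At an unadjusted p under 0.05 there were 468 probe sets (5.74%), 269 higher (3.3%) and 199 lower (2.44%) on knockout-plus-CCL3, where 408 would be expected at that threshold with no difference. That count was 206 and 211 without knockout-plus-CCL3 replicates 1 and 2, 505 without carrier wild type replicate 1 and 1532 without its replicate 2. Without that last array, when the atypical array alone stood for carrier wild type, limma called 131 probe sets at an adjusted p under 0.05, of which 124 lay higher. Taking the brightest probe set of each of 6181 genes, 329 genes (5.32%) had such a p, 198 higher (3.2%) and 131 lower (2.12%). The group means lay within 2-fold of each other for 97.2% of probe sets, and 228 (2.8%) lay outside it, 145 higher and 83 lower. The arrays of the 2 groups did not overlap at 34.4% of genes, with both knockout-plus-CCL3 arrays above both carrier wild-type arrays at 16.5% and below both at 18%. The knockout-plus-CCL3 mean lay above each carrier wild-type array at 27% of genes and below each at 28.6%. All values below are differences on the scale log2(intensity + 102.3), knockout-plus-CCL3 minus carrier wild type, with the standard error of the fit and 2 arrays per group. That scale understates the differences of dim genes. No gene named below passed the adjusted threshold in limma with all arrays, and an exact permutation test of 2 arrays against 2 cannot go below a two-sided p of 0.333.

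The distance between the groups was about as large as the distance expected from replicate scatter alone. The root mean square (RMS) log2 difference between the 2 group means was 0.426 over the tested probe sets, and its value expected from the replicate gaps was 0.406. Most of that expected value comes from the gap of 0.707 between the carrier wild-type arrays, which include the atypical one. The gap between the knockout-plus-CCL3 arrays was 0.398. A distance near the expected value therefore does not show that the groups were close. Knockout-plus-CCL3 lay nearer to wild-type-plus-CCL3, at 0.296 with 0.314 expected from replicate gaps. Its distance to knockout-plus-carrier was 0.397, with 0.348 expected. Knockout-plus-carrier lay 0.501 from carrier wild type, with 0.454 expected. These distances share arrays with each other, and no test was made of their order.

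**Figure D1:**
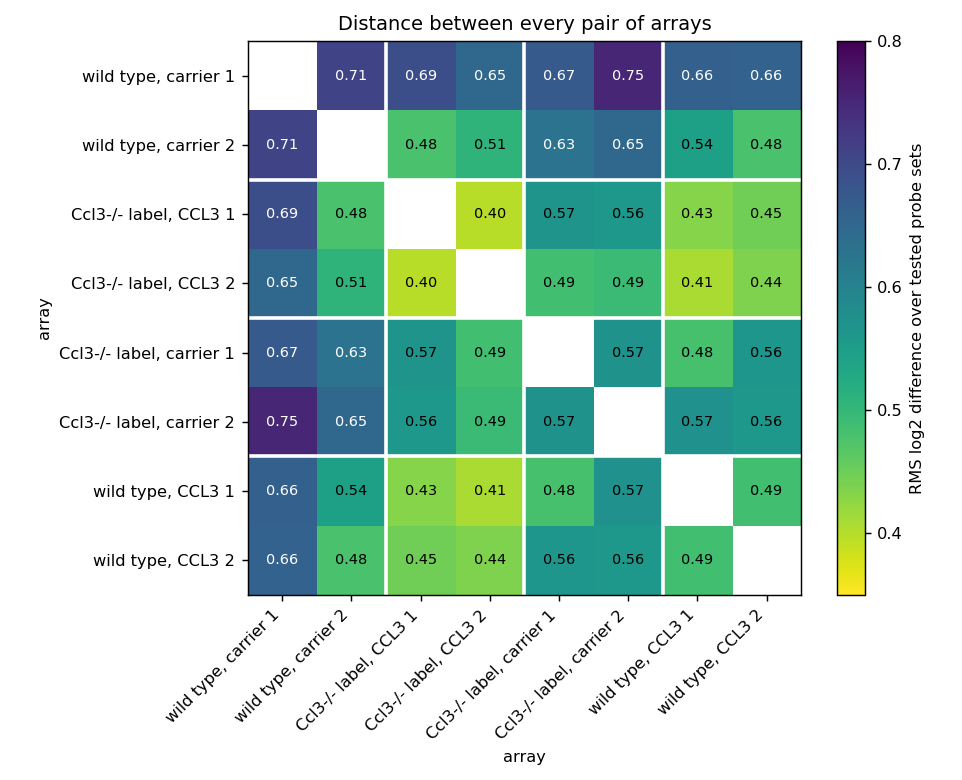
Root mean square log2 difference over 8150 tested probe sets for every pair of arrays, with darker cells for larger distances and both axes in the same array order. Carrier wild type replicate 1 lies 0.647 or more from every other array, its own replicate included, while the 2 knockout-plus-CCL3 arrays lie 0.398 apart.

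Array by array, the answer depended on which carrier wild-type array was taken. The 2 carrier wild-type arrays lay 0.707 from each other, more than the 0.398 between the 2 knockout-plus-CCL3 arrays. Carrier wild type replicate 1 lay 0.691 and 0.647 from knockout-plus-CCL3 replicates 1 and 2. Carrier wild type replicate 2 lay 0.479 and 0.507 from them, nearer than to its own replicate. The mean of knockout-plus-CCL3 was over 2-fold from carrier wild type replicate 1 at 813 probe sets (577 higher, 236 lower) and from replicate 2 at 361 (192 higher, 169 lower). Only 67 probe sets were over 2-fold away in the same direction from both, 31 higher and 36 lower. These are 8.24% of the 813 and 18.6% of the 361. Of all tested probe sets, 44.2% had opposite signs against the 2 arrays.

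**Figure D2:**
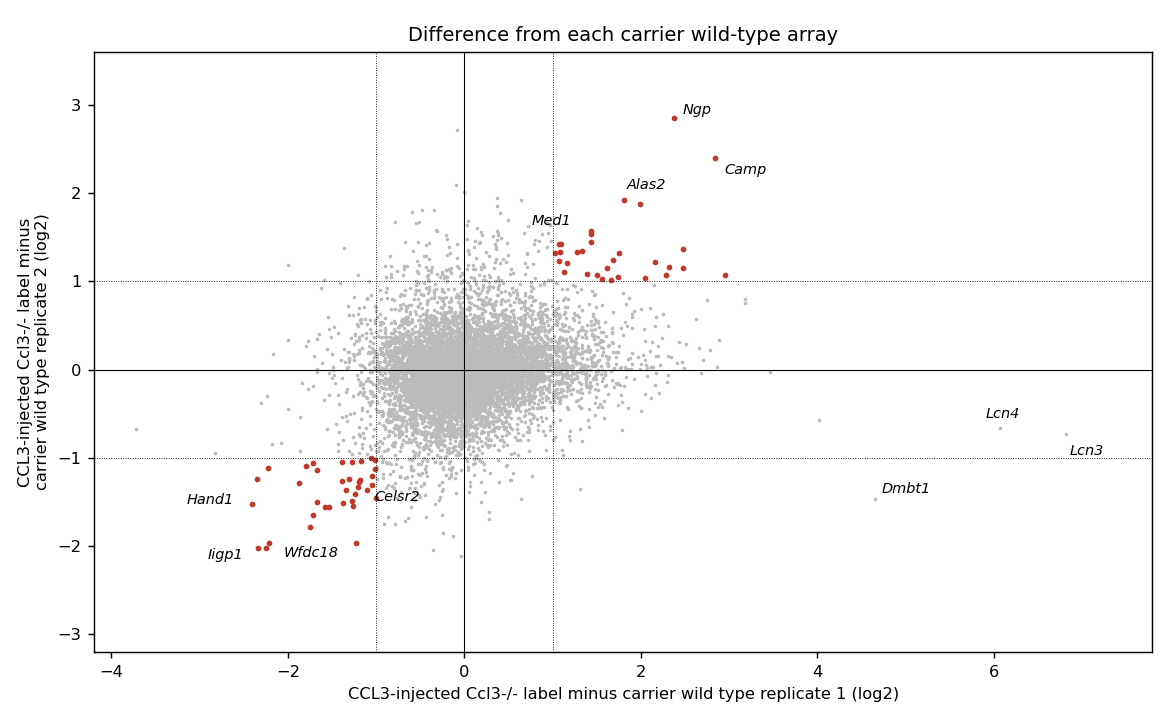
Log2 difference of the knockout-plus-CCL3 mean from carrier wild type replicate 1 (horizontal) and replicate 2 (vertical), one point for each tested probe set. Red points are the 67 probe sets over 2-fold away in the same direction from both arrays (dotted lines mark 2-fold), and the spread is wider along the axis of replicate 1, where Lcn3, Lcn4 and Dmbt1 reach 6.82, 6.07 and 4.65.

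The Ccl3 probe set separated the genotype labels in the direction opposite to a loss of the gene. Its intensity was 332 and 159 on the carrier wild-type arrays and 727 and 730 on knockout-plus-CCL3, with no overlap, a difference of 1.30 ± 0.35. Knockout-plus-carrier read 812 and 804, and wild-type-plus-CCL3 read 223 and 386. The signal was thus high on all 4 arrays labelled Ccl3-/- whichever injection they had, and injected protein is not measured by an RNA probe. If the probe set lies outside the deleted part of the gene it checks nothing, and the labels do not name that part. Knockout is used here for the label only, and each genotype direction rests on it.

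Ligands and receptors around CCL3 were mostly dim. Of 14 listed genes of the CCL3 axis, 13 were on the array and 6 were bright enough to be tested, 2 higher and 4 lower. Ccl4, which encodes the closely related MIP-1 beta, was under the filter at 127 and 61.7 on carrier wild type and 115 and 143 on knockout-plus-CCL3. Ccr1, a receptor of CCL3, was also under it, at 200 and 236 against 139 and 191. Ccl9, a CC chemokine that also binds CCR1, read 8532 and 3911 on carrier wild type and 2072 and 1474 on knockout-plus-CCL3, a difference of -1.67 ± 0.59. Its values did not overlap between the groups, but the carrier wild-type arrays spread widely. So did the other groups, which read 6109 and 2205 (knockout-plus-carrier) and 13239 and 4416 (wild-type-plus-CCL3). Ccl6 was at -0.45 ± 0.32. Ccl8, a monocyte-attracting chemokine, was at 0.39 ± 0.56, at 1.45 without carrier wild type replicate 1 and at -0.67 without replicate 2. Cxcl1, a neutrophil-attracting chemokine, read 1014 and 368 against 62.4 and 324, a difference of -1.45 ± 0.52 that was -0.83 without carrier wild type replicate 1. Its second probe set overlapped between the groups, at -0.78 ± 0.62, and was at 0.16 without that array. Cxcl1 was the lowest-lying of 7 tested CXC chemokines and receptors, of which 1 was higher and 6 lower, with a median of -0.31.

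Red blood cell genes were the list whose members lay most often above wild type at an unadjusted p under 0.05. Of 36 listed genes, 24 were on the array and 18 were tested. Of these, 15 lay higher and 3 lower on knockout-plus-CCL3, with a median of 0.49 against -0.01 over all genes. The median was 0.22 without carrier wild type replicate 1 and 0.72 without replicate 2. At an unadjusted p under 0.05, 7 of the 18 lay higher and 0 lower, against 3.2% and 2.12% of all genes. On 8 of the 18 both knockout-plus-CCL3 arrays exceeded both carrier wild-type arrays, against 16.5% of all genes. The summed intensity of the list was 80302 and 66492 on carrier wild type and 118991 and 120237 on knockout-plus-CCL3. The other 4 arrays lay between 64118.5 and 87561, so the 2 knockout-plus-CCL3 arrays were above all 6 others. On every array most of this sum came from the globin genes Hba-a1 and Hbb-b2, so it mainly repeats their values. In RNA from whole tissue, more blood in a sample and more RNA per cell cannot be told apart.

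Alas2, the erythroid form of the first enzyme of heme synthesis, had the smallest p of all probe sets. Its intensity was 803 and 735 on carrier wild type and 2704 and 3470 on knockout-plus-CCL3. Both high values exceeded every other array, which read 1388 and 1532 (knockout-plus-carrier) and 1534 and 1090 (wild-type-plus-CCL3). The difference was 1.86 ± 0.26, a 3.64-fold gap, with an adjusted p of 0.284 in limma. It was 1.92 without carrier wild type replicate 1 and 1.81 without replicate 2, so neither wild-type array set it. The adjusted p was 0.0338 in limma without replicate 2. Without that array, the atypical array alone stood for carrier wild type. Slfn2 then lay at 2.29, Mmp14 at -1.87, Osmr at -1.43, Cyp2f2 at 1.75 and Lcn3 at 6.82. Acan lay at 3.18, Acy3 at 2.17, Hand1 at -2.41, Pea15a at 2.96 and Dmbt1 at 4.65. Hbb-b2, an adult beta globin, read 10545 and 7579 against 20839 and 21076, a difference of 1.22 ± 0.25. Hba-a1, an alpha globin, read 46598 and 26791 against 59228 and 64719, a difference of 0.81 ± 0.27. The carrier wild-type arrays differed from each other for this gene, and the difference was 1.21 without replicate 1 and 0.41 without replicate 2. Slc4a1, which encodes the band 3 anion exchanger of the red cell membrane, read 382 and 757 against 1807 and 959, a difference of 1.14 ± 0.43 that was 0.73 without carrier wild type replicate 1. Car2, the red cell carbonic anhydrase, was chosen after its values were seen and lay 0.72 ± 0.28 higher.

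The promoters of Alas2 and Hba-a1 are shown because both genes belong to the red cell list and lay higher together. They are the 250 bases before the RefSeq transcription start on GRCm38.p6. Capitals mark GATAA or its reverse complement TTATC, the core bound by the erythroid factor GATA1, and CACCC or its reverse complement GGGTG, the core of the element bound by the factor KLF1.
Alas2 promoter, chrX:150547167-150547416, plus strand: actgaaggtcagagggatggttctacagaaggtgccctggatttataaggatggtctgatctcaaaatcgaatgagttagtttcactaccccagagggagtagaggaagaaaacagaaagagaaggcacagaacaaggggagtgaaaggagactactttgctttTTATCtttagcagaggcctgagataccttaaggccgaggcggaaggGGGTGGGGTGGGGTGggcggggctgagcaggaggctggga
Hba-a1 promoter, chr11:32283422-32283671, plus strand: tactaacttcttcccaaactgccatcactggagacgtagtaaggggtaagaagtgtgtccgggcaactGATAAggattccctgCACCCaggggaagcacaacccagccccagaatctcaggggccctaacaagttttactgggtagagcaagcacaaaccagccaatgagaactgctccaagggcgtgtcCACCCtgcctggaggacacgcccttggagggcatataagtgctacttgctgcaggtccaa
The Alas2 window holds 1 TTATC, 86 bases before the start, and 3 GGGTG at 40, 35 and 30 bases before it. The Hba-a1 window holds 1 GATAA at 182 bases and CACCC at 167 and 60 bases before the start. The 2 motifs share no base with each other in these windows. Of the 18 tested red cell genes, 13 had a promoter in the sequence table. Among these 13, 8 held GATAA on either strand, 10 held CACCC and 7 held both. Over all 32851 promoters of the same length the shares were 22.6%, 52.0% and 10.1%. A match describes the sequence and does not show a bound site.

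**Figure D3:**
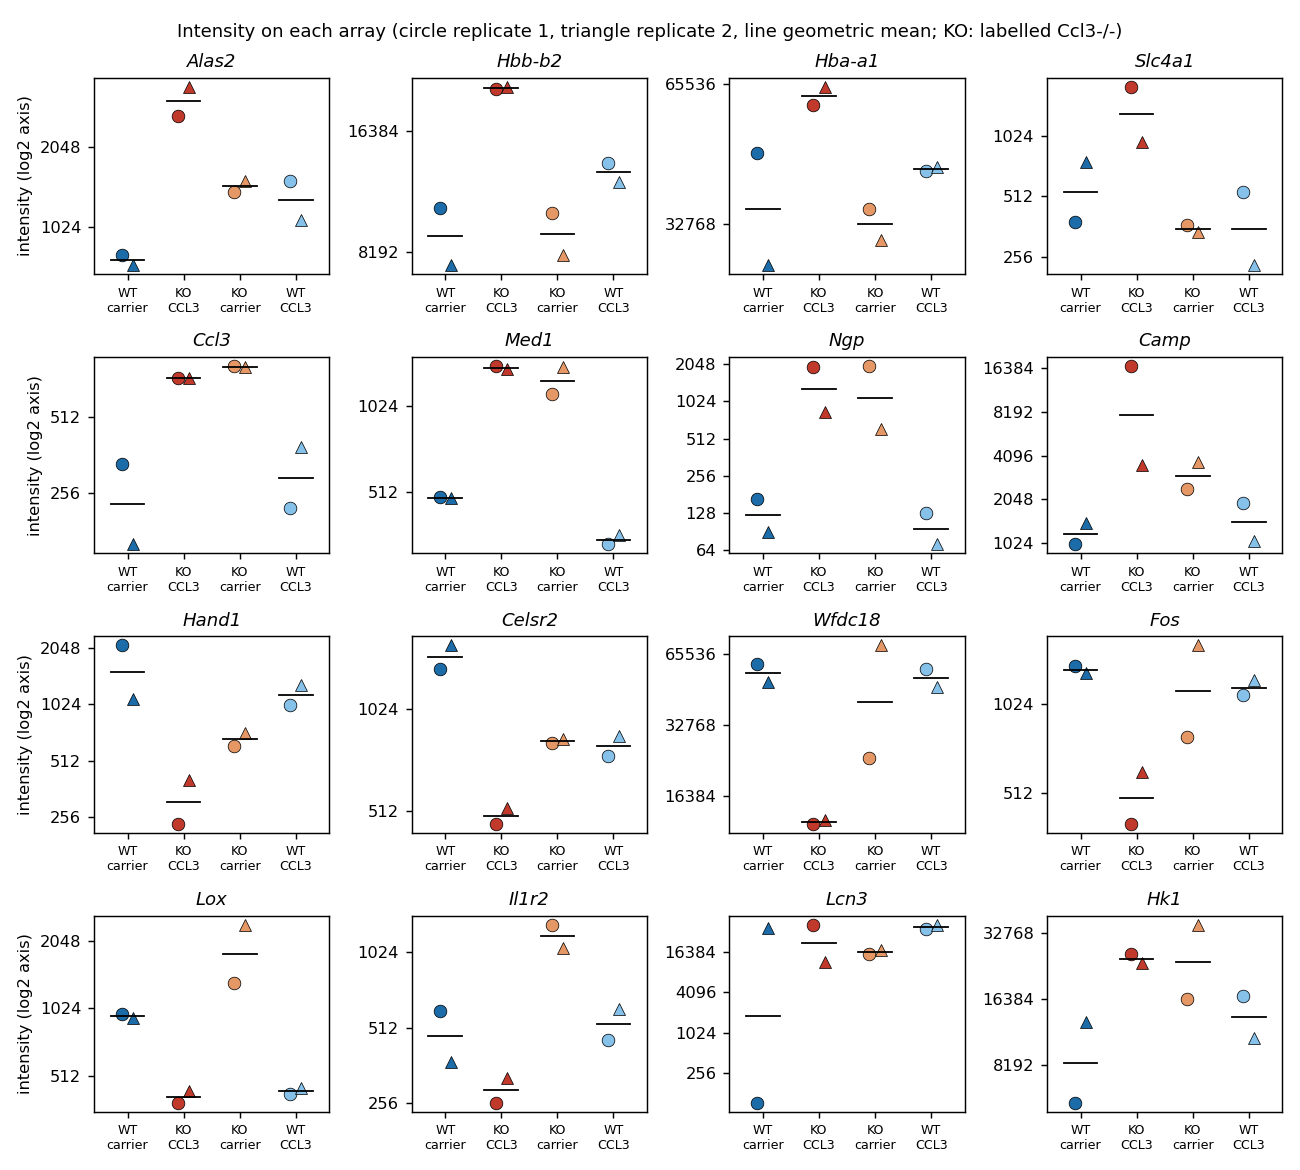
Intensity of 16 genes on each of the 8 arrays, on log2 axes, by group (circle for replicate 1, triangle for replicate 2, line for the geometric mean of the 2). Alas2, Hbb-b2 and Hba-a1 are above all other arrays on knockout-plus-CCL3, while Ccl3, Med1 and Ngp are high in both groups labelled Ccl3-/- and Lcn3 is low on carrier wild type replicate 1 alone.

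Macrophage genes, the cells named in the series title, lay evenly on both sides. Of 40 listed markers, 32 were on the array and 23 were tested, 12 higher and 11 lower, with a median of 0.03 and 0 at an unadjusted p under 0.05. Their summed intensity was 157718 and 156158 on carrier wild type and 169592 and 171322 on knockout-plus-CCL3, within the 138921 to 191102 of the other 4 arrays. Lyz2, a lysozyme of macrophages and neutrophils, read 4423 and 11105 against 11023 and 13304, so the groups overlapped and replicate 1 was the low array. Its difference of 0.78 ± 0.40 became 0.12 without that array. C1qb, a chain of complement C1q made by tissue macrophages, was at 0.67 ± 0.46, and at -0.16 without replicate 1. Its second probe set overlapped between the groups, at 0.01 ± 0.48, and was at -0.47 without replicate 1. C1qc, another chain of the same protein, was at -0.33 ± 0.23, and at -0.21 without it. Cd68, Adgre1 and Csf1r, which define macrophages, were chosen outside the naming rule. They were at 0.44 ± 0.34, 0.39 ± 0.56 (0.61 without carrier wild type replicate 1) and -0.04 ± 0.27. For these probe sets the sign of each turned when 1 array was left out. Cd68 turned to -0.077 and Csf1r to 0.032 without carrier wild type replicate 1, and Adgre1 to -0.088 without knockout-plus-CCL3 replicate 2. A second, dimmer probe set of Csf1r did not overlap between the groups, at -0.54 ± 0.37. It was at -0.72 without carrier wild type replicate 1 and at -0.37 without replicate 2. At this spread a modest difference in macrophage content was not detectable.

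The neutrophil list was evenly split, and its 3 members with the smallest p, all granule proteins, lay above wild type. Ngp, neutrophilic granule protein, read 166 and 90.7 on carrier wild type and 1947 and 849 on knockout-plus-CCL3, a difference of 2.62 ± 0.53. It was as high on knockout-plus-carrier, at 1976 and 609, and as low on wild-type-plus-CCL3, at 127 and 71.5, so it followed the genotype label on all 8 arrays. Camp, the granule antimicrobial peptide cathelicidin, read 1001 and 1398 against 17005 and 3546, a difference of 2.62 ± 0.60. Knockout-plus-CCL3 replicate 1 alone was far above all other arrays for Camp, and the difference was 1.504 without it. Mpo, myeloperoxidase of the primary granules, read 168 and 151 against 871 and 450, a difference of 1.49 ± 0.59. All 3 are made mainly by neutrophil precursors in the marrow. Of the 16 tested neutrophil genes, 8 lay higher and 8 lower, and the median was -0.02, or 0.03 without carrier wild type replicate 1. At an unadjusted p under 0.05 were 3 higher and 0 lower, against 3.2% and 2.12% of all genes. Ngp and Mpo exceeded the filter value only on arrays labelled Ccl3-/-, so they could be tested only because they were high there. Both count among the 3 higher members, and the effect of the filter on that count was not tested. S100a8 and S100a9, calcium-binding proteins that are abundant in circulating neutrophils, were chosen outside the naming rule. S100a8 read 6505 and 1348 against 8792 and 4211, and S100a9 read 2851 and 322 against 4234 and 1699, so both overlapped between the groups. Their differences of 1.00 ± 0.68 and 1.32 ± 0.85 were -0.093 and -0.080 without carrier wild type replicate 2, and 2.09 and 2.72 without replicate 1.

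Antigen presentation genes divided by class and by array. For MHC class II, which presents peptides to CD4 T cells, 8 of 10 tested genes lay higher and 2 lower, with a median of 0.21. That median was -0.32 without carrier wild type replicate 1 and 0.79 without replicate 2, so its sign depended on the array. H2-Eb1, a class II beta chain, read 3845 and 3576 against 2342 and 2120, with no overlap, a difference of -0.71 ± 0.25. H2-Ab1, the other classical beta chain, read 1735 and 1649 against 1435 and 1136, a difference of -0.38 ± 0.24. H2-DMb2, a chain of the peptide-loading molecule, lay on the other side at 1.03 ± 0.37, and at 0.61 without carrier wild type replicate 1. For MHC class I, 3 of 11 lay higher and 8 lower, with a median of -0.27. H2-M3, which presents formylated peptides, was at -0.95 ± 0.38, and Psmb8, an immunoproteasome subunit, at -0.59 ± 0.27, or -0.38 without carrier wild type replicate 1. T, B and NK cell genes had 6 of 14 higher and 8 lower, with a median of -0.15 (-0.30 without that array), and Ms4a1, the B cell antigen CD20, read 924 and 1144 against 760 and 662.

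Interferon response genes showed no common direction, with 11 of 23 higher and 12 lower and a median of -0.05, which was -0.26 without carrier wild type replicate 1 and 0.055 without replicate 2. Iigp1, an interferon-induced GTPase, read 736 and 615 on carrier wild type and 105 and 47.3 on knockout-plus-CCL3, a difference of -2.14 ± 0.47. Its second probe set lay at -0.96 ± 0.32. Irgm2, another such GTPase, was at -0.90 ± 0.32, and at -0.59 without replicate 2. Slfn2, a Schlafen family gene of lymphoid and myeloid cells, lay the other way. It read 147 and 478 against 1286 and 966, a difference of 1.68 ± 0.39, and the other 4 arrays read 1170 to 2073, so for this probe set carrier wild type was the low group. The difference was 1.07 without carrier wild type replicate 1. A second probe set of Slfn2 overlapped between the groups, at 0.80 ± 0.61, and was at -0.15 without that array. Ifit3 was at 0.94 ± 0.46, and at 0.33 without carrier wild type replicate 1.

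Complement and acute phase genes lay mostly below carrier wild type. Of 23 tested, 8 lay higher and 15 lower, with a median of -0.13 (-0.21 without carrier wild type replicate 1 and -0.44 without replicate 2). Of these, 1 higher and 6 lower had an unadjusted p under 0.05, against 3.2% and 2.12% of all genes. Alb, serum albumin, read 1046 and 1301 against 476 and 296, a difference of -1.40 ± 0.34. Apoa1, the main apolipoprotein of high-density lipoprotein, read 470 and 444 against 107 and 42.1, a difference of -1.68 ± 0.46. For both genes the carrier wild-type arrays were the 2 highest of all 8, since the other groups read 171 to 315 for Alb and 53.2 to 110 for Apoa1. Hpx, the heme carrier hemopexin, was at -1.16 ± 0.44, and at -0.64 without carrier wild type replicate 2. It read 375 and 885 on carrier wild type and 137 to 256 on all other arrays. Apoa1 and Hpx exceeded the filter value only on the 2 carrier wild-type arrays, so they could be tested only because they were high there. Both count among the 6 lower members, and the effect of the filter on that count was not tested. C1ra, a protease of the first complement component, read 2960 and 2364 against 1285 and 1252 with no overlap. Its second probe set, however, lay at 0.11 ± 0.48, and at -0.039 without carrier wild type replicate 1.

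Leukocyte adhesion and trafficking genes had the lowest median of all lists, -0.47, with 5 of 17 higher and 12 lower. Of these, 1 higher and 3 lower had an unadjusted p under 0.05, against 3.2% and 2.12% of all genes. The median was -0.27 without carrier wild type replicate 1 and -0.30 without replicate 2. Selp, the endothelial and platelet adhesion molecule P-selectin, read 694 and 108 against 57.4 and 59.8, a difference of -1.34 ± 0.60. Replicate 1 held most of that gap, which was -0.38 without it. Mmp14, a membrane-bound matrix protease, read 5103 and 1968 against 1259 and 1397, a difference of -1.20 ± 0.39 that was -0.54 without replicate 1. Itgal, the alpha chain of the leukocyte integrin LFA-1, lay higher at 1.29 ± 0.50. Genes of interleukin 1 and 6 signalling had 5 of 16 higher and 11 lower, with a median of -0.27 that was -0.11 without replicate 1. Osmr, the oncostatin M receptor, read 2778 and 1204 against 989 and 946, a difference of -0.86 ± 0.35 that was -0.29 without replicate 1. Irak1, a kinase of interleukin 1 receptor signalling, was at -0.65 ± 0.27.

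Collagens, matrix genes and their proteases had 8 of 35 members higher and 27 lower, with a median of -0.25. Such a p was found for 0 higher and 3 lower members, against 3.2% and 2.12% of all genes. These 3 were Lox, Mmp3 and Mmp14. Mmp3 and Mmp14 were also among the 3 lower members of the leukocyte adhesion list, so the counts of the lists are not independent. Lox, the enzyme that crosslinks collagen and elastin, read 969 and 930 on carrier wild type and 388 and 439 on knockout-plus-CCL3. For this probe set the wild-type arrays were close together and the difference was -1.03 ± 0.30, and -1.06 without carrier wild type replicate 2. Mmp3, stromelysin 1, read 1016 and 338 against 134 and 154, a difference of -1.51 ± 0.54 that was -0.84 without carrier wild type replicate 1. Timp1, an inhibitor of these proteases, was at -0.69 ± 0.32.

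**Figure D4:**
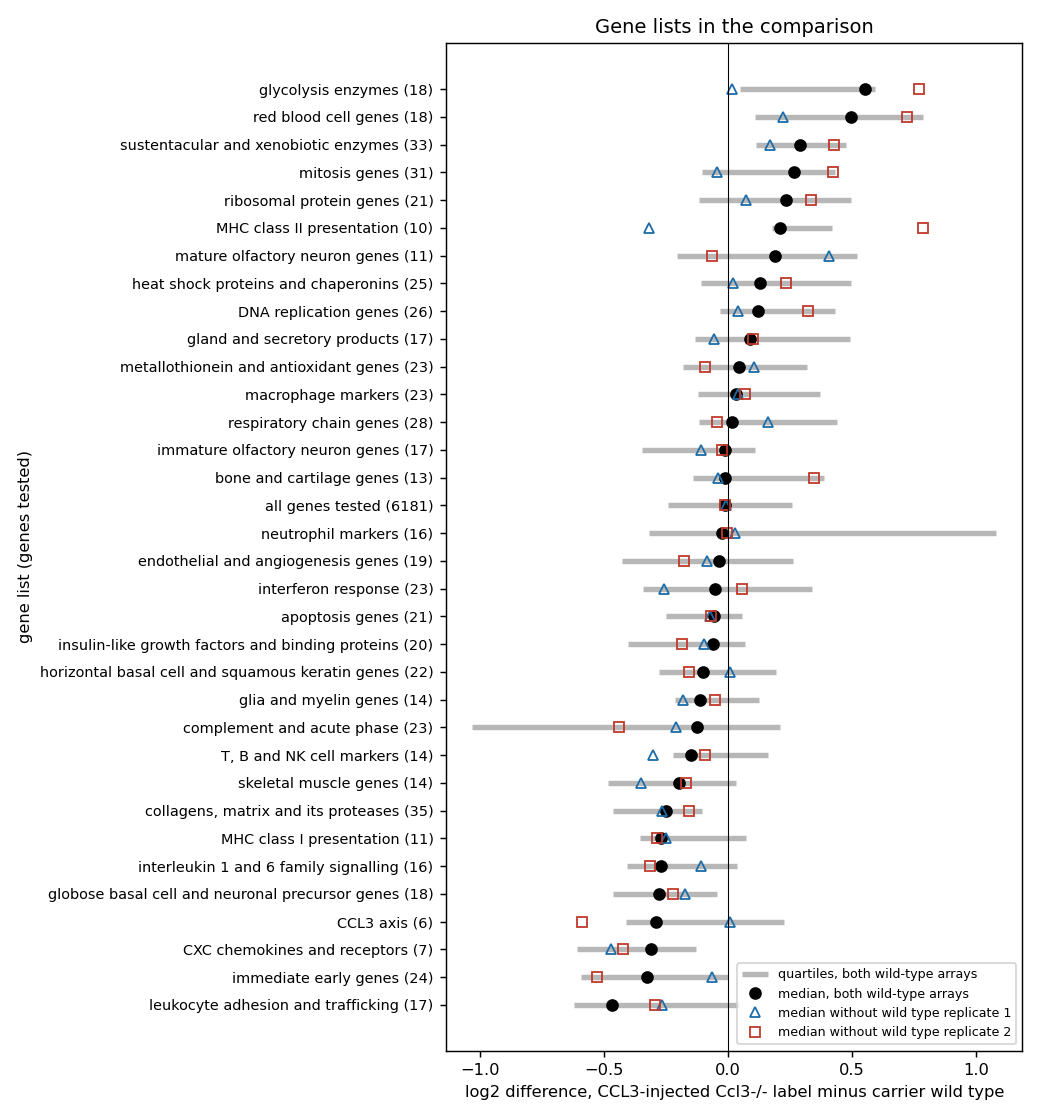
Median log2 difference, knockout-plus-CCL3 minus carrier wild type, of each gene list (genes tested in parentheses), with quartiles as grey bars. Triangles leave out carrier wild type replicate 1 and squares leave out replicate 2: the red blood cell list stays above 0 either way (0.22 and 0.72), while glycolysis enzymes move between 0.01 and 0.77 and MHC class II between -0.32 and 0.79.

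In the olfactory epithelium itself, most neuronal precursor genes lay below carrier wild type and most supporting cell genes above it. Of 18 tested genes of globose basal cells and neuronal precursors, 4 lay higher and 14 lower, with a median of -0.28. That median was -0.17 without carrier wild type replicate 1 and -0.22 without replicate 2. Only 0 higher and 1 lower had an unadjusted p under 0.05, against 3.2% and 2.12% of all genes. Neurog1, a transcription factor that commits precursors to the neuronal fate, read 489 and 447 against 228 and 217, a difference of -0.81 ± 0.35. Neurod1, which acts after it, read 516 and 960 against 394 and 467, a difference of -0.61 ± 0.35 that was -0.22 without carrier wild type replicate 2 and -0.998 without replicate 1. Sox11, a factor of newborn neurons, was at -0.53 ± 0.30 (-0.32 without replicate 2), and Dlx5, a homeobox gene of the olfactory placode lineage, at -0.65 ± 0.30. A second Sox11 probe set overlapped between the groups, at -0.10 ± 0.30. It was at -0.22 without replicate 1 and at 0.021 without replicate 2. On knockout-plus-carrier the 4 genes read lower still on average than on knockout-plus-CCL3, with Neurod1 at 147 and 188. The list's median difference from carrier wild type was -0.48 there, measured against the same 2 wild-type arrays. Immature neuron genes were even, at 8 of 17 higher and a median of -0.01, or -0.11 without carrier wild type replicate 1. Mature neuron genes had 6 of 11 higher and a median of 0.19, which was 0.41 without replicate 1 and -0.065 without replicate 2. Omp, the marker of mature olfactory neurons, read 4251 and 12949 against 16002 and 19808, a difference of 1.25 ± 0.52 that was 0.46 without replicate 1. Cnga2, the odorant-gated channel subunit, was at 0.64 ± 0.35. Its second probe set overlapped between the groups, at 0.17 ± 0.45, and was at 0.58 without replicate 1.

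Sustentacular and xenobiotic enzyme genes had 26 of 33 members higher and 7 lower, with a median of 0.29. An unadjusted p under 0.05 was found for 3 higher and 0 lower members, against 3.2% and 2.12% of all genes. On 13 of the 33, both knockout-plus-CCL3 arrays exceeded both carrier wild-type arrays, against 16.5% of all genes. The median was 0.17 without carrier wild type replicate 1 and 0.43 without replicate 2. Ces1d, a carboxylesterase, read 24120 and 24604 against 35590 and 38567, a difference of 0.60 ± 0.21 with the wild-type arrays close together. Its second probe set lay at 0.27 ± 0.21. Adh1, an alcohol dehydrogenase, read 10197 and 18964 against 25758 and 26272, a difference of 0.90 ± 0.31 that was 0.45 without carrier wild type replicate 1. Cyp2f2, a cytochrome P450 abundant in nasal epithelium, read 13645 and 38293 against 45490 and 46947, and its difference of 1.01 ± 0.39 was 0.27 without replicate 1. Horizontal basal cell and keratin genes had 7 of 22 higher and 15 lower, with a median of -0.10 that was near 0 (0.0071) without replicate 1. Lama3, a laminin chain of the basement membrane, was at 0.86 ± 0.38 (0.43 without replicate 1), and Itgb4, the integrin beta chain that anchors basal cells to it, at -0.67 ± 0.35.

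Among gland and secretory products, 10 of 17 lay higher and 7 lower, with a median of 0.09 that was -0.058 without carrier wild type replicate 1. Wfdc18, a small secreted protein with a whey acidic protein domain, read 59337 and 49794 on carrier wild type and 12479 and 12963 on knockout-plus-CCL3, a difference of -2.09 ± 0.42. Knockout-plus-CCL3 was below all 6 other arrays, since knockout-plus-carrier read 23581 and 71078 and wild-type-plus-CCL3 56246 and 47530. In limma its adjusted p was 0.725, and without knockout-plus-carrier replicate 1 or 2, whose values spread widely, it was 0.0267 or 0.0326.

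Genes of cell division lay slightly higher, with medians near 0 when the atypical array was left out. DNA replication genes had 19 of 26 higher and 7 lower, with a median of 0.12 that was 0.04 without carrier wild type replicate 1. Mitosis genes had 21 of 31 higher and 10 lower, with a median of 0.27 that was -0.04 without it. Mki67, a marker of dividing cells, read 536 and 1268 against 476 and 398, a difference of -0.80 ± 0.40 that was -1.35 without replicate 1 and -0.25 without replicate 2, though its second probe set lay at 0.49 ± 0.52. Pold2, a DNA polymerase delta subunit, was at 1.03 ± 0.45, and at 0.55 without replicate 1. Rrm1, a subunit of ribonucleotide reductase, read 135 and 734 against 1425 and 800, a difference of 1.40 ± 0.64 that was 0.49 without replicate 1 and 2.31 without replicate 2.

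Immediate early genes, which respond within minutes to stimulation or to tissue handling, had 6 of 24 higher and 18 lower, with a median of -0.33. Of these, 0 higher and 4 lower had an unadjusted p under 0.05, against 3.2% and 2.12% of all genes. The median was -0.06 without carrier wild type replicate 1 and -0.53 without replicate 2. Fos read 1370 and 1300 on carrier wild type and 403 and 600 on knockout-plus-CCL3, a difference of -1.27 ± 0.33. The 2 knockout-plus-CCL3 arrays were below all 6 others for Fos, since the lowest of those was 789. Fosb, its relative, read 1150 and 1479 against 584 and 638, a difference of -0.98 ± 0.28. Junb, their dimerisation partner, was at -0.90 ± 0.34 (-0.51 without replicate 1), and Ier2 at -0.73 ± 0.30 (-0.40 without it). Glycolysis enzymes had 13 of 18 higher and a median of 0.55, the highest of all lists, but 0.01 without replicate 1. Hk1, hexokinase 1, read 5526 and 12820 against 26124 and 23813, a difference of 1.55 ± 0.45 that was 0.95 without replicate 1. Slc2a1, the glucose transporter GLUT1, was at 0.88 ± 0.31. Pklr, the pyruvate kinase of liver and red cells, was at 0.58 ± 0.25.

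Genes of the tissues next to the mucosa differed little as groups. Skeletal muscle genes had 4 of 14 higher and 10 lower, with a median of -0.20 (-0.35 without carrier wild type replicate 1), and 14 of the 30 on the array were under the filter on every array. Bone and cartilage genes had 5 of 13 higher and 8 lower, with a median of -0.01 that was 0.35 without replicate 2. Acan, the cartilage proteoglycan aggrecan, read 101 and 958 against 2560 and 1177, a difference of 1.99 ± 0.64 that was 0.80 without carrier wild type replicate 1. Col11a2, a cartilage collagen, read 355 and 262 against 1346 and 554, a difference of 1.26 ± 0.40. Knockout-plus-CCL3 replicate 1 was the highest array for both, and Col11a2 was at 0.69 without it.

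Among the genes with the smallest p outside these lists, several were alike on the 2 carrier wild-type arrays. Med1, a subunit of the Mediator complex that links transcription factors to RNA polymerase II, read 493 and 488 against 1418 and 1385, a difference of 1.34 ± 0.25. Acy3, an aminoacylase, read 151 and 385 against 966 and 1105, a difference of 1.69 ± 0.33. Lrrfip2, an adaptor of Toll-like receptor and Wnt signalling, was at 1.20 ± 0.27, Rhou, a small GTPase, at 1.44 ± 0.35, and Abca1, the cholesterol efflux pump, at 1.30 ± 0.35. For these probe sets, Acy3, Lrrfip2, Rhou and Abca1 were also higher on all 4 other arrays than on carrier wild type. A second probe set of Rhou lay at 0.36 ± 0.24. One of Abca1 lay at 0.04 ± 0.26, and at 0.25 without carrier wild type replicate 1. The probe sets of Rhou and Abca1 thus differed.

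On the lower side, Hand1, a basic helix-loop-helix factor of heart and neural crest development, read 2105 and 1087 against 236 and 406, a difference of -1.97 ± 0.35. Celsr2, a cadherin of planar cell polarity, read 1340 and 1578 against 470 and 524, a difference of -1.38 ± 0.25. Its second probe set overlapped between the groups, at -0.21 ± 0.41, and was at 0.36 without carrier wild type replicate 1. Hand1 and the first Celsr2 probe set were lower on knockout-plus-CCL3 than on any other array. Chaf1b, a subunit of the histone chaperone CAF-1, read 477 and 466 against 95.1 and 87.2, a difference of -1.57 ± 0.38. Pofut2, an O-fucosyltransferase, was at -1.59 ± 0.35, and Degs2, a sphingolipid desaturase, at -1.55 ± 0.38. Nr1d1, the circadian repressor REV-ERB alpha, read 1694 and 1845 against 770 and 912, a difference of -0.99 ± 0.26.

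The other 4 arrays give the reverse pairing, knockout-plus-carrier minus wild-type-plus-CCL3, which shares no array with the comparison. A difference of the same sign in both pairings runs with the genotype label, and one of opposite sign with the injection. The sign alone cannot tell these from scatter or from a difference in 1 group only. Alas2, highest on knockout-plus-CCL3, had the same sign in both, at 1.86 and 0.16. The reverse pairing had 384 probe sets (4.71%) at an unadjusted p under 0.05, 4.3% of genes, and 0 (0%) past the adjusted threshold in limma. Of the 468 probe sets with such a p in the comparison, 273 (58.3%) had the same sign in the reverse pairing, against 52.8% of all tested probe sets. With an unadjusted p under 0.05 in both pairings there were 23 of the same sign and 16 of the opposite sign. Among all 384 with such a p in the reverse pairing, 204 had the same sign and 180 the opposite. Both p-values come from limma with one spread fitted over all 4 groups, so passing in both is not independent evidence.

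Genes of the same sign included Med1, Ngp and Ccl3 above and Pex14 and Elf4 below. Med1 read 1133 and 1405 on knockout-plus-carrier and 336 and 361 on wild-type-plus-CCL3, a reverse difference of 1.60 ± 0.25 beside 1.34 in the comparison. The reverse differences of Ngp and Ccl3 were 2.61 ± 0.53 and 1.19 ± 0.35. Pex14, a peroxisomal import protein, read 1507 and 966 against 247 and 447 in the comparison and was at -1.07 ± 0.38 in reverse. This holds for the dimmest of its 3 probe sets. The 2 brighter ones were at -0.66 and -0.58 in the comparison (-0.27 and -0.26 without carrier wild type replicate 1). In reverse they were at 0.092 ± 0.33 and -0.12 ± 0.28. Elf4, an ETS transcription factor of lymphocytes and NK cells, read 841 and 868 against 193 and 166 and was at -1.15 ± 0.43 in reverse. Values for these genes were alike on the 2 groups with the same genotype label: knockout-plus-CCL3 minus knockout-plus-carrier was 0.14 ± 0.25 for Med1 and 0.20 ± 0.53 for Ngp.

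Of the 16 probe sets of opposite sign, 11 were lower and 5 higher on the CCL3-injected group in both pairings. The higher ones included Cat, the antioxidant enzyme catalase, at 0.73 and -0.65 in reverse, and Car4, a membrane carbonic anhydrase, at 0.67 and -0.84. The genes that follow were among the lower ones. Lox read 1325 and 2413 on knockout-plus-carrier and 425 and 451 on wild-type-plus-CCL3, a reverse difference of 1.81 ± 0.30 beside -1.03 in the comparison. For this probe set all 4 CCL3-injected arrays were below all 4 carrier arrays. A second, dimmer probe set of Lox lay at -0.60 ± 0.48 in the comparison, and at -0.92 without carrier wild type replicate 1. It lay at -0.40 ± 0.48 in reverse, so it did not have opposite signs. Mmp3 was at 1.62 ± 0.54 in reverse, Cxcl1 at 1.25 ± 0.52, Selp at 1.79 ± 0.60 and Osmr at 0.90 ± 0.35. Saa3, an acute phase serum amyloid, was chosen after its values were seen. It read 3563 and 342 on carrier wild type, 74.8 and 334 on knockout-plus-CCL3, 3242 and 4743 on knockout-plus-carrier and 31.9 and 638.5 on wild-type-plus-CCL3. Its differences were -2.20 ± 0.97 in the comparison and 3.67 ± 0.97 in reverse, and the former was -0.68 without carrier wild type replicate 1. Il1r2, the decoy receptor that binds interleukin 1, was at -0.56 ± 0.31 and 1.03 ± 0.31 for its brighter probe set, the former being -0.29 without carrier wild type replicate 1, and at -1.07 and 0.86 for the other, which is the one among the 16. Red cell genes were near 0 in the reverse pairing, with a median of 0.01, and Alas2 was at 0.16 ± 0.26.

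**Figure D5:**
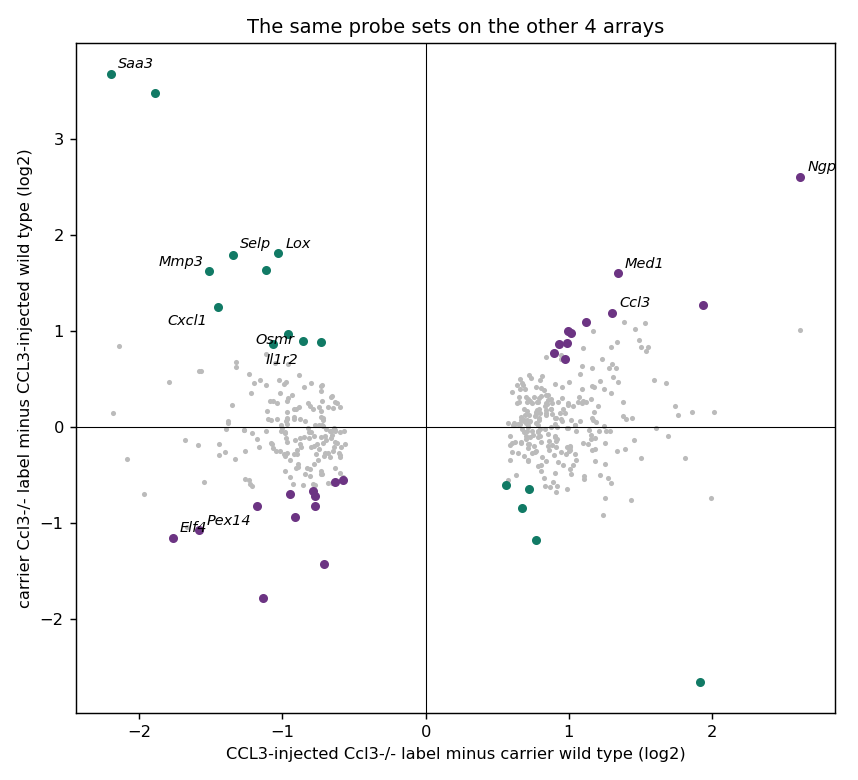
Log2 difference in the comparison (horizontal) and in the reverse pairing of the other 4 arrays (vertical) for the 468 probe sets with an unadjusted p under 0.05 in the comparison. Purple points have the same sign and green points the opposite sign with such a p in both pairings (23 and 16), and Saa3, Selp, Mmp3 and Lox lie at the upper left, lower after CCL3 in both.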

How the data were processed

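Intensity values were used as the authors deposited them, on a linear scale with 1 value for each of 12488 probe sets and array; the software that made them is not given in the sources used here. Trimmed means (2% at each end) were equal within 0.00434%, so the values were not normalized again. Gene names came from the platform annotation: 10855 probe sets had 1 symbol, 396 several, 1237 none, and 16 named ones did not match the GRCm38.p6 gene table. The 66 control probe sets were left out of tests. A pseudocount of 102.3, the 20th percentile, was added before log2. Tests kept the 8150 probe sets with a value above 362.7 (40th percentile) on 2 or more arrays. limma 3.58.1 (R 4.3.3) fitted all 4 groups, with 4 residual degrees of freedom, an intensity trend and Benjamini-Hochberg adjustment.

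Members and the 33 gene lists were chosen with earlier results of these data known. Named were Ccl3, Ccl4 and Ccr1, in each direction the 12 genes with the smallest p, and up to 4 of each list with the smallest p; not all are printed, and an item is not reported here. Alternatives covered normalization, pseudocount, filter, trend, thresholds, samples and a replicate block; a crossed block was added after seeing the data. In simulated data of 8150 probe sets for this comparison, an adjusted p under 0.05 found 14.2% of 2-fold and 68.8% of 4-fold changes, with 200 changed probe sets in each draw. Figures were drawn with matplotlib 3.10.9. With 2 arrays a group, the number of arrays limits precision.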

Additional observations from a re-analysis of the deposited data

How the results depend on the processing

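No probe set passed the adjusted threshold in limma under any normalization, pseudocount, filter, trend or block tried, nor at an adjusted p of 0.10. Leaving out single arrays gave 0 to 131 such probe sets in the comparison. The 131 (124 higher, 7 lower) came without carrier wild type replicate 2, which leaves replicate 1 alone and assumes that it varies like the other groups. The single one without knockout-plus-carrier replicate 1 or 2 was Wfdc18. Counts at an unadjusted p under 0.05 were 206 to 1532 without single arrays, with 206 and 211 without knockout-plus-CCL3 replicates 1 and 2, 505 without carrier wild type replicate 1 and 1532 without replicate 2. With no filter the count was 815 (304 higher, 511 lower), and with the filter at the 60th percentile 273 (176 higher, 97 lower); the cause was not tested. The RMS difference was 0.426 to 0.639 and the reverse pairing's count 241 to 596 without single arrays, the lowest without wild-type-plus-CCL3 replicate 2. With only its own 4 arrays the lowest adjusted p of the reverse pairing was 0.0419 in limma.

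The labels' replicate numbers did not pair the arrays, since correlations of replicate gaps ran from -0.158 to 0.178. With the number as a replicate block, 509 probe sets (321 higher, 188 lower) had an unadjusted p under 0.05, and with crossed numbers 579.

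Alternatives were recomputed for the genes whose differences the text discusses and a few more named genes. Of these, 12 values changed sign, all when 1 array was left out. Lowest and highest values without single arrays were -0.67 and 1.45 for Ccl8, -0.16 and 1.51 for C1qb, -0.73 and 6.82 for Lcn3, -0.077 and 0.96 for Cd68, -0.088 and 0.87 for Adgre1 and -0.25 and 0.16 for Csf1r. They were -0.093 and 2.09 for S100a8, -0.080 and 2.72 for S100a9, -0.67 and 6.07 for Lcn4, -1.46 and 4.65 for Dmbt1 and -0.58 and 4.02 for Moxd2. The lowest came without carrier wild type replicate 1 for C1qb, Cd68, Lcn3, Lcn4, Dmbt1 and Moxd2, and without its replicate 2 for Ccl8, S100a8 and S100a9. Csf1r was also above 0 (0.032) without carrier wild type replicate 1. The other values of these genes kept their sign (1697 on the same side of the threshold, 13 newly past it). Of list medians, 469 moved by less than the replicate spread and 59 by more.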

Other observations

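Beside Lcn3, 3 more genes were under the filter value on carrier wild type replicate 1 and bright on its replicate 2. They were chosen after their values were seen, and some gland genes, such as Wfdc18, were bright on that array. Lcn4, another odorant-binding lipocalin, read 22.4 on that array, 13198 on carrier wild type replicate 2, and 31464 and 2124 on knockout-plus-CCL3. Dmbt1, a secreted scavenger glycoprotein of mucosal glands, read 324, 29481, 21964 and 5102 in the same order, and Moxd2, a monooxygenase-like gene, read 45.4, 3463, 1597 and 3265 and was also under the filter on wild-type-plus-CCL3 replicate 2, at 135. Without that array, knockout-plus-CCL3 lay below carrier wild type for all 3 genes, by log2 differences of -0.67, -1.46 and -0.58.

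The 30 tested genes nearest to Ccl3 in gene order, 15 on each side in the GRCm38.p6 gene table, were evenly split, with 15 higher, 15 lower and a median of 0.01. At an unadjusted p under 0.05 were 5 of them (16.7%, against 5.32% of all genes): Slfn2, Car4 and Mpo higher, Ccl9 and Wfdc18 lower. This group was chosen with results known and was not tested. Wfdc18 and Ccl9 were lower on both knockout-plus-CCL3 arrays than on both carrier wild-type arrays, and Car4, a membrane carbonic anhydrase, read 719 and 792 on carrier wild type and 1385 and 1152 on knockout-plus-CCL3.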
